A study of Homo sapiens with 48 samples.

Results

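Glycolysis and hypoxia-response genes form a set of 36 genes chosen by name, and these are followed here across 48 RNA-seq libraries of cultured human fibroblasts. All 36 were found among the 29744 genes of the deposited table. The set holds the oxygen-regulated transcription factor subunits HIF1A and EPAS1, 2 glucose transporters and 2 monocarboxylate transporters. It further holds 15 enzymes of the glycolytic chain, 2 enzymes that set the level of fructose-2,6-bisphosphate, 3 enzymes that act on pyruvate or on the complex that consumes it, and 10 other genes known to respond to low oxygen. The rule is a list of names with no threshold on a measured value, but the list was drawn up with earlier results of these data known. After a filter on low counts, 33 of them were tested in one arm of the study (ALDOC, EGLN3 and CA9 were not) and 35 in the other (EGLN3 was not).

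The cells were ATCC CRL-4001 skin fibroblasts, an immortalized line, carrying mNeonGreen as a reporter of IL11 (IL11mNG). In the CRISPRko arm they carried Cas9, a nuclease, and in the CRISPRa arm dCas9–VP64, a catalytically dead Cas9 fused to a transcriptional activator. Each arm held cells with a lentiviral guide RNA against GLIS3, a zinc-finger transcription factor, and cells with a control guide, all kept as selected bulk populations. The cytokines TGFβ and IL-1β, at 10 ng per ml, were added 0, 6, 12 or 24 h before a common harvest, so the 0 h libraries are unstimulated. This gave 4 groups of cells: H47_Ctrl (Cas9, control guide), H47_KO (Cas9, GLIS3 guide), VP64_Ctrl (dCas9–VP64, control guide) and VP64_A (dCas9–VP64, GLIS3 guide). Each had 12 libraries, 3 at each time, so there were 16 conditions. Because each group of cells was 1 population, the effect of a guide and any other difference between populations cannot be told apart. The study's methods state in general terms that cell culture experiments used independent biological replicates. No label says that the 3 libraries of a condition came from separate cultures, and the p-values measure the spread between these libraries.

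Glycolysis splits glucose into pyruvate in the cytosol, yielding ATP without oxygen, and lactate dehydrogenase turns pyruvate into lactate when pyruvate is not oxidized in mitochondria. When oxygen is low, the α subunits encoded by HIF1A and EPAS1 escape degradation, pair with ARNT and bind short DNA elements with the core RCGTG near their target genes. Targets include most glycolytic enzymes, glucose transporters, PDK1, which inhibits pyruvate dehydrogenase, and genes of pH control and mitochondrial turnover. HIF1A is regulated mainly at the level of its protein, which RNA-seq does not measure.

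Libraries held between 2321990 and 10661004 estimated counts. GLIS3 had 6–45 counts per library in H47_Ctrl and 1–21 in H47_KO. The groups of the CRISPRa arm are named here by the descriptions in the labels, whereas the titles and genotype labels name VP64_A as the control and VP64_Ctrl as the GLIS3 group. GLIS3 had 71–271 counts per library in VP64_A and 6–32 in VP64_Ctrl. The targeted gene was therefore higher in the group to which the descriptions give the GLIS3 guide, which goes with the descriptions and against the titles. Every direction given for VP64_A over VP64_Ctrl would be reversed if the titles were followed. In 4 libraries the 50 most abundant genes held over 7 percentage points less of the counts than in both other libraries of the condition: H47_Ctrl at 6 h replicate 1 (33.77%), H47_KO at 0 h replicate 3 (30.71%), H47_KO at 24 h replicate 3 (31.41%) and VP64_Ctrl at 0 h replicate 3 (23.1%). Calls lost without them are named with the result. All 12 fibroblast markers examined had a mean above 1 TPM (transcript abundance on a common total, a level per length) in each group of cells. Endothelial and melanocyte markers lay near 0, and among leucocyte markers the mean of CD68 alone exceeded 1 TPM.

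Levels of the 36 genes spanned the whole range of the libraries. On the TPM scale, GAPDH, which catalyses the oxidation step of glycolysis, stood highest with a median of 22140 TPM in the 12 VP64_Ctrl libraries. LDHA, a lactate dehydrogenase subunit, had a median of 5300 TPM and the enolase ENO1 of 3892 TPM. The hypoxia-inducible isoenzymes lay far lower. ENO2 had a median of 6.12 TPM, HK2 of 6.04 TPM and ALDOC of 3.80 TPM in the same libraries. HIF1A RNA (186 TPM) exceeded EPAS1 RNA (8.79 TPM). EGLN3, which encodes a prolyl hydroxylase that marks HIF subunits for degradation, had 0 counts in all 48 libraries. Over their 254189583 counts this allows a level of up to 0.0118 CPM, counting error only.

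The set took a larger part of the RNA in VP64_A than in the other groups of cells. Summed over the 36 genes, VP64_A libraries held 5.317–7.549% of their estimated counts in these genes. VP64_Ctrl libraries held 3.445–5.182%, H47_Ctrl 3.081–4.746% and H47_KO 3.199–4.877%. The ranges of VP64_A and of the other 3 groups of cells did not overlap. The sum is carried mainly by a few abundant enzymes, so each gene is described on its own below. Counts scaled to library sizes that TMM had corrected for composition are called normalized CPM, and they were scaled within each arm.

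**Figure D1:**
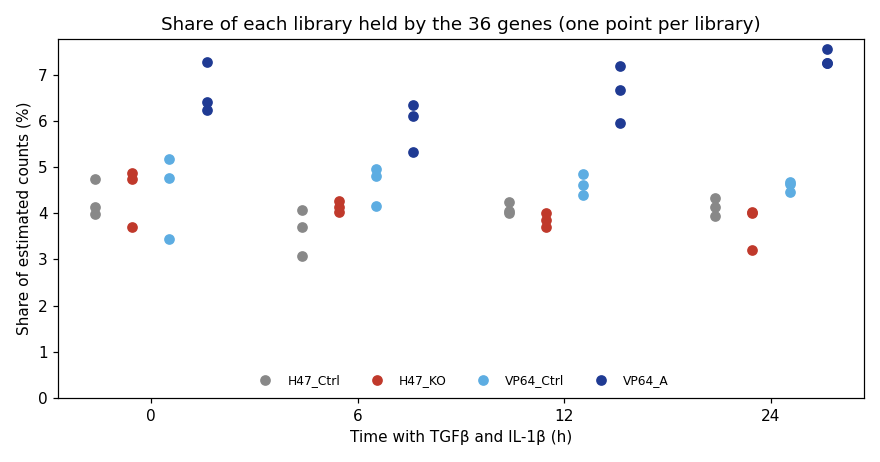
Share of each library's estimated counts (y axis, %) held by the 36 glycolysis and hypoxia-response genes, against time with TGFβ and IL-1β (x axis, h), with 1 point per library coloured by group of cells. VP64_A libraries lie between 5.317 and 7.549%, above all libraries of the other 3 groups of cells, the highest of which is at 5.182%.

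With the GLIS3 guide and dCas9–VP64, transcripts of nearly the whole pathway were more abundant than with the control guide. Averaged over the 4 times, 28 of the 35 tested members were higher in VP64_A and 1, EPAS1, was lower. Of all 10980 genes tested, 9.15% were higher and 9.23% lower. CA9 passed the filter on low counts only through its VP64_A libraries, so its call is no support, and without it 27 of 34 were higher and 1 lower. The members' median log2 fold change was 0.64, against −0.0037 over all genes. A positive value was held by 33 members, and by 32 of 34 without CA9. Of the 15 enzymes of the chain 13 were higher, both glucose transporters were higher, and all 3 enzymes acting on pyruvate or its oxidation were higher. Of the 9 tested genes among the other hypoxia-response genes 7 were higher, counting CA9, whose call is no support.

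HIF1A and EPAS1, the related oxygen-regulated subunits, went in opposite directions. At 0 h HIF1A measured 656, 557 and 628 normalized CPM in the 3 VP64_A libraries and 304, 262 and 294 in VP64_Ctrl. At 24 h it measured 1016, 883 and 1075 against 624, 678 and 555. The libraries did not overlap at any of the 4 times. The averaged difference was 0.90 on the log2 scale (SE 0.106, adjusted p = 6.95e-08). EPAS1 measured 23.2, 23.02 and 26.5 normalized CPM in VP64_A and 55.4, 60.7 and 56.6 in VP64_Ctrl at 0 h. With 24 h of cytokines the values were 9.40, 10.3 and 11.7 against 19.3, 16.5 and 19.2. Every VP64_A library was below every VP64_Ctrl library at each time, and EPAS1 fell by 0.92 on the log2 scale on average (SE 0.084, adjusted p = 2.71e-10).

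Transcripts of both glucose transporters and of 8 of the 9 enzymes of the upper steps were higher with TMM scaling. SLC2A1 (GLUT1), the main glucose transporter of many cultured cells, measured 130, 133 and 136 normalized CPM in VP64_A at 0 h and 93.5, 88.5 and 107 in VP64_Ctrl. The 2 groups did not overlap at any time, and the averaged log2 difference was 0.62 (SE 0.077, adjusted p = 2.15e-07). SLC2A3 (GLUT3) differed by 0.64. HK2, the inducible hexokinase that traps glucose in the cell, measured 25.2, 29.2 and 29.3 normalized CPM in VP64_A against 9.84, 14.4 and 13.5 at 0 h. At 12 h it measured 87.9, 75.5 and 75.3 against 33.3, 39.8 and 28.7. HK2 thus stood well above VP64_Ctrl without cytokines as well as with them, with an averaged log2 difference of 0.92 (SE 0.114, adjusted p = 1.67e-07).

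The aldolase ALDOC, the isoform typical of brain, was among the members with the largest change. It measured 10.5, 10.2 and 7.41 normalized CPM in VP64_A and 1.90, 4.47 and 2.84 in VP64_Ctrl at 0 h. At 24 h the values were 15.1, 12.0 and 8.37 against 4.04, 4.21 and 3.96. ALDOC was higher in every VP64_A library at each time, by 1.47 on the log2 scale on average (SE 0.190, adjusted p = 3.99e-07). Other enzymes of these steps rose less. The averaged log2 differences were 0.77 for the isomerase GPI, 0.75 for TPI1, 0.69 for the main aldolase ALDOA, 0.64 for the phosphofructokinase PFKL, 0.42 for HK1 and 0.36 for PFKP. The muscle phosphofructokinase PFKM (0.22, adjusted p = 0.0645) did not pass the test. Of the enzymes that make and break fructose-2,6-bisphosphate, the activator of phosphofructokinase, PFKFB4 was higher (0.53, SE 0.108, adjusted p = 0.000494), whereas PFKFB3 (0.25, adjusted p = 0.14) did not pass.

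The lower steps of glycolysis showed the same direction. PGK1, the first enzyme of the chain that yields ATP, measured 1644, 1383 and 1512 normalized CPM in VP64_A and 778, 867 and 538 in VP64_Ctrl at 0 h. At 24 h it measured 3589, 2784 and 3329 against 1109, 929 and 889. The lowest VP64_A library lay above the highest VP64_Ctrl library at each time, and PGK1 was 2.30-fold higher on average (log2 1.20, SE 0.119, adjusted p = 1.58e-09). ENO2, the enolase of neurons, measured 11.9, 14.7 and 12.4 normalized CPM against 11.6, 9.03 and 9.13 at 0 h. At 24 h it measured 50.7, 56.3 and 45.5 against 23.9, 16.8 and 18.4. The groups lay close together without cytokines and far apart at 24 h, where the log2 difference was 1.34 (SE 0.202, adjusted p = 2.9e-05), against 0.38 at 0 h (SE 0.208, adjusted p = 0.278). A test of the change in the difference itself between 0 and 24 h did not pass (log2 0.96, SE 0.290, adjusted p = 0.288).

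GAPDH (0.62), PGAM1 (0.57) and ENO1 (0.48) were also higher on average. PKM, the pyruvate kinase, did not pass the test (0.31, SE 0.156, adjusted p = 0.173). At 0 h it measured 2590, 2842 and 2253 normalized CPM in VP64_A and 1752, 2158 and 830 in VP64_Ctrl, with the lowest value in a library that stood apart. At 24 h the values were 3475, 4349 and 2505 against 2845, 2749 and 1431, and the groups overlapped.

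PDK1 and both lactate dehydrogenase genes were higher. PDK1, the kinase that switches off pyruvate dehydrogenase, measured 26.1, 23.4 and 23.6 normalized CPM in VP64_A and 5.87, 7.79 and 4.94 in VP64_Ctrl at 0 h. After 24 h they were 31.6, 24.7 and 27.5 against 10.6, 17.2 and 4.86. PDK1 did not overlap between the groups at any time and was 3.34-fold higher on average (log2 1.74, SE 0.161, adjusted p = 3.82e-10). LDHA, the lactate dehydrogenase subunit favouring lactate production, measured 11263, 10389 and 9818 normalized CPM against 6150, 6393 and 3109 at 0 h. At 24 h it measured 17258, 15261 and 16268 against 7823, 6377 and 5967. LDHA was apart at 0 and 24 h, with an averaged log2 difference of 0.80 (SE 0.149, adjusted p = 0.000148), and LDHB differed by 0.62. The lactate importer or exporter SLC16A1 (MCT1) was higher by 0.46 on the log2 scale. SLC16A3 (MCT4), the transporter specialized in lactate export, did not differ on average (−0.05, 95% interval −0.21 to 0.11).

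**Figure D2:**
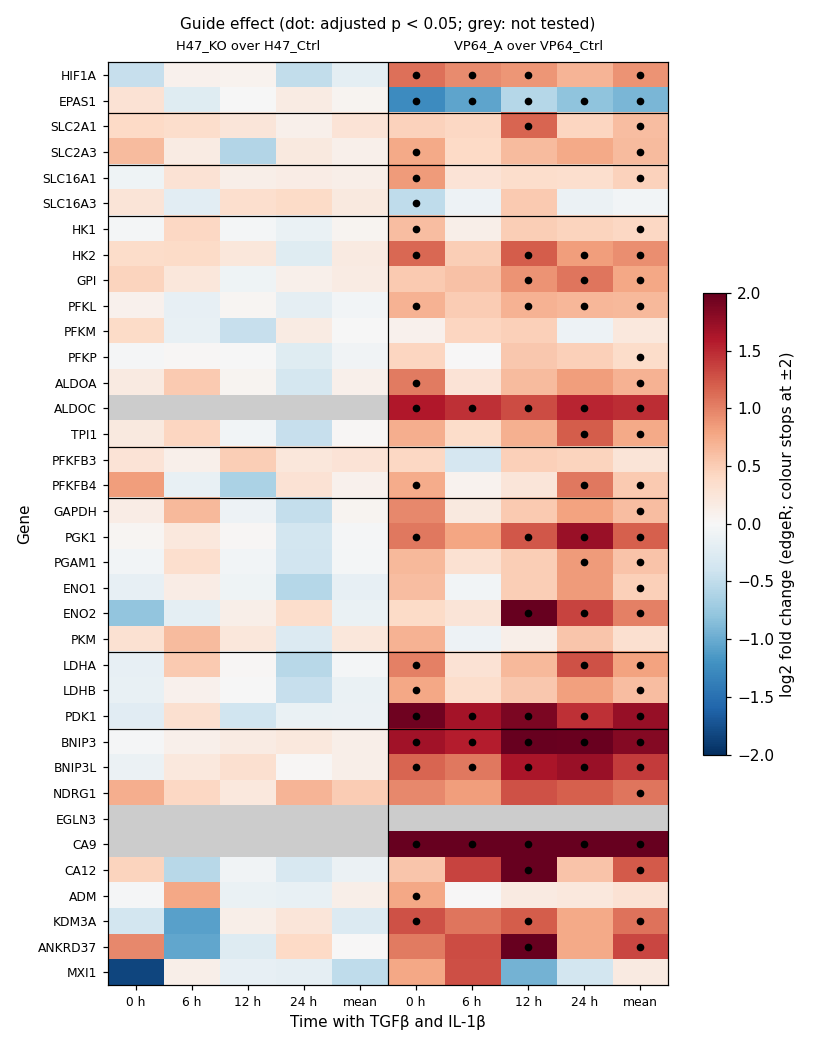
Log2 fold change of each member (1 row per gene) with the GLIS3 guide over the control guide, at 0, 6, 12 and 24 h with TGFβ and IL-1β and averaged over these times, for H47_KO over H47_Ctrl and VP64_A over VP64_Ctrl. Colour gives the log2 fold change, a dot an adjusted p under 0.05 and grey an untested gene. There are 29 dots in the averaged VP64_A column and 0 in the H47_KO columns.

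The other hypoxia-response genes that were higher include mitophagy receptors and carbonic anhydrases. BNIP3, which marks mitochondria for degradation, measured 237, 168 and 180 normalized CPM in VP64_A and 66.0, 63.3 and 52.7 in VP64_Ctrl at 0 h. The 24 h values were 571, 440 and 487 against 139, 146 and 97.6. BNIP3 was apart at each time and was 3.57-fold higher on average (log2 1.83, SE 0.1003, adjusted p = 1.62e-15). Its relative BNIP3L (NIX) measured 155, 115 and 139 normalized CPM against 63.4, 62.8 and 56.7 at 0 h. At 24 h it measured 293, 228 and 294 against 92.2, 88.1 and 66.8. BNIP3L was likewise apart at each time, with an averaged log2 difference of 1.39 (SE 0.091, adjusted p = 1.3e-13).

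CA9, a membrane carbonic anhydrase that extrudes acid and a widely used marker of hypoxia, was close to absent outside VP64_A. At 0 h it had 18.99, 16.98 and 14.999 estimated counts in the VP64_A libraries and 0 in each VP64_Ctrl library. A floor of 3 counts was set over the 3 VP64_Ctrl libraries. Scaled to library size, the observed VP64_A counts stood 20.4-fold above it at 0 h, 3.80-fold at 6 h and 7.13-fold at 12 h. These folds leave out counting error in VP64_A and the spread between replicate libraries, so they are not strict lower limits. Over all times there were 115 counts in VP64_A and 1 in VP64_Ctrl, a ratio of 129 with a counting interval from 22.6 to 5120. The counts per VP64_A library were low, with 5, 5 and 2 at 6 h. In the CRISPRko arm CA9 had at most 3 counts in any library and could not be tested. CA12, another membrane carbonic anhydrase, measured 8.83, 5.45 and 5.39 normalized CPM in VP64_A and 0.789, 0.365 and 2.84 in VP64_Ctrl at 12 h. CA12 was not called at 0, 6 or 24 h. Its averaged log2 difference was 1.22 (SE 0.236, adjusted p = 0.000257).

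Of the remaining members of this class, ANKRD37, KDM3A and NDRG1 were higher, from levels of a few normalized CPM at 0 h, and ADM and MXI1 did not pass. ANKRD37, a small ankyrin-repeat protein, measured 4.04, 2.14 and 3.79 normalized CPM in VP64_A and 1.90, 1.41 and 1.497 in VP64_Ctrl at 0 h, and differed by 1.34 on average (SE 0.252, adjusted p = 0.000179). KDM3A, a histone H3K9 demethylase, measured 7.13, 4.53 and 8.73 against 2.48, 3.98 and 1.65 at 0 h. Its averaged log2 difference was 1.08 (SE 0.178, adjusted p = 2.88e-05). Both were apart at 0 h. NDRG1, a stress-induced gene, measured 3.86, 5.03 and 1.81 against 1.74, 1.33 and 2.70 at 0 h, where the groups overlapped, and differed by 1.06 on average (SE 0.215, adjusted p = 0.000464). The log2 differences of ADM, which encodes the vasodilator peptide adrenomedullin (0.29, adjusted p = 0.0823), and of the MYC antagonist MXI1 (0.19, adjusted p = 0.736) are those that did not pass.

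**Figure D3:**
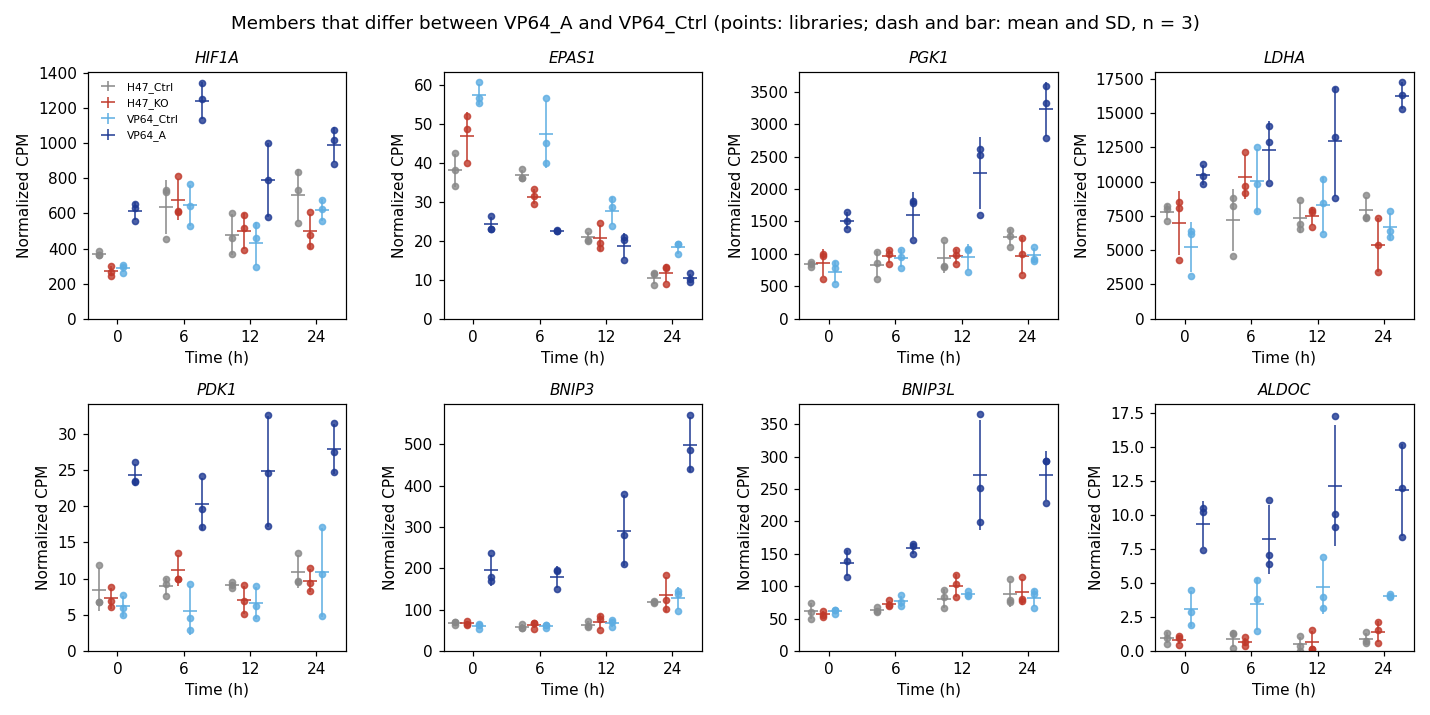
Normalized CPM (y axes, from 0) of HIF1A, EPAS1, PGK1, LDHA, PDK1, BNIP3, BNIP3L and ALDOC against time with TGFβ and IL-1β (x axes, h). Points are libraries, and dashes with bars give the mean and SD (n = 3) of each group of cells. Except for LDHA, the VP64_A points lie apart from the VP64_Ctrl points at all 4 times, below them for EPAS1 and above them for the others.

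The count of members past the test varied with time, and at 0, 6, 12 and 24 h 33, 30, 33 and 31 of the 35 had a positive log2 fold change. At 0 h 18 of 35 were higher and 2 lower (all genes, 4.29% higher and 5.12% lower), the second lower member being SLC16A3, which was not called at the other times. At 6 h 6 were higher and 1 lower (1.86% and 1.9%), at 12 h 15 and 1 (2.37% and 1.94%) and at 24 h 14 and 1 (1.99% and 2.13%). With TMM scaling, ALDOC, BNIP3, BNIP3L and PDK1 were called higher, and EPAS1 lower, at all 4 times. CA9 was also called at each time, by way of the filter as above, and is 1 of the higher members in each of these counts. BNIP3 and BNIP3L alone were called at all 4 times under each of TMM, DESeq2, loess and TPM scaling. ALDOC and EPAS1 were lost under at least 1 of these at 6, 12 and 24 h, and PDK1 at 24 h. The median log2 fold changes of the members were 0.77, 0.39, 0.64 and 0.81 at 0, 6, 12 and 24 h, with those of all genes between −0.02 and 0.01. VP64_A and VP64_Ctrl libraries did not overlap for 31 members at 0 h (26.6% of all genes), 16 at 6 h (18.5%), 24 at 12 h (16.9%) and 28 at 24 h (23.4%). Of the members, 12 were higher without overlap at all 4 times, CA9 among them. The share of all genes that did so was not computed, so this count has no background to be read against.

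Testing whether the difference changed with the cytokines called 0 members with edgeR, either between 0 and 6 h or between 0 and 24 h (0.0911% and 0.209% of all genes). At an unadjusted p under 0.05 there were 4 and 3 members, and DESeq2 also called 0. Between 0 and 6 h the change was below 0 for 28 of the 35 members, with a median of −0.28, against 0.04 over all genes. With loess offsets these medians were 0.02 and 0.02, so the common direction depended on the scaling. Between 0 and 24 h limma on TPM and edgeR with abundance-dependent loess offsets each called 1 member, PGK1, with a larger difference at 24 h. The difference between the groups was thus present in unstimulated cells.

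The averaged result did not hinge on the libraries that stood apart. Without these 4 libraries 28 members were higher and 1 lower, and these were the same 29 genes. At 0 h the count did depend on VP64_Ctrl replicate 3, since without it 11 members were higher and 1 lower, with ADM, ALDOA, HK1, KDM3A, LDHA, LDHB, SLC16A3 and SLC2A3 no longer called. At 6 h the count was 4 without VP64_Ctrl replicate 1. On log2(TPM + 1) values tested with limma, 24 members were higher and 1 lower on average. By time, 12 were higher and 2 lower at 0 h, 9 and 0 at 6 h, 16 and 0 at 12 h, and 13 and 0 at 24 h. The averaged calls of PFKFB4, PFKP, SLC16A1 and SLC2A3 were lost under at least 1 of TMM, DESeq2, loess and TPM scaling.

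Other measures moved with this comparison. KRT14, a keratin of basal epithelium, was 2.80 higher on the log2 scale in VP64_A, with a median of 53.95 TPM against 6.96 TPM. The 6 epithelial and keratinocyte markers summed to 14.64–78.95 TPM in VP64_A libraries and 2.166–12.94 in VP64_Ctrl libraries, while EPCAM and KRT1 were at 0 in all of them. Of the 12 fibroblast markers 6 were higher (COL5A1 by 1.46 on the log2 scale, COL1A1 by 1.14) and 4 lower (S100A4 by −1.13, LUM by −0.82), against 9.15% and 9.23% of all genes. Their summed levels were 21450–28250 TPM in VP64_A and 18920–35020 TPM in VP64_Ctrl. The leucocyte markers summed to 13.75–36.74 TPM and 18.16–69.73 TPM, and CD68 was lower by −0.76. Their part in the result was not tested. In bulk RNA, fewer cells expressing a gene and less RNA per cell cannot be told apart.

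Genes next to these 36 in the same pathways did not all follow them. The counts below are for the averaged difference, in which 9.15% of all genes were higher and 9.23% lower. In lists of 9 or 10 genes, 1 call in a direction is close to these shares. Among 26 tested of 32 other known HIF target genes, 16 were higher and 1 lower, with a median log2 difference of 0.58. They include the adenylate kinase AK4 (1.92), the mTOR inhibitor DDIT4 (1.91), FAM162A (1.46) and the collagen prolyl hydroxylase P4HA1 (1.40), and the lower gene was PPP1R3C (−0.51). Among the 9 tested HIF regulators 1 was higher, ARNT2 (1.34), and 1 lower, CITED2 (−1.48), which competes with HIF for its coactivator. Of 10 further glycolysis genes 2 were higher, PGM1 (1.11) and PGAM4 (0.63), whose counts may be shared with the near-identical PGAM1. In the pentose phosphate pathway, which branches from glycolysis at glucose 6-phosphate, 1 of the 6 genes counted was higher, RPE (0.33), and 2 were lower, TALDO1 (−0.58) and PGD (−0.57). Of 10 genes of pyruvate entry into mitochondria 1 was higher, PDHA1 (0.30), and 1 lower, PDK2 (−0.46).

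Promoter sequences are shown for the 7 members with the largest averaged differences that have a window in the reference, because HIF binds the core RCGTG. They are credited to RefSeq (GRCh38.p14), where 32 of the 36 members had a window of 250 bases before to 50 after an annotated start. SLC2A3, SLC16A1, BNIP3L and NDRG1 had none. PDK1 had 2 windows, of which 1 held ACGTG, and the window with matches is the one shown. Capitals mark ACGTG and GCGTG on either strand (CACGT and CACGC are the same motifs on the opposite strand), and overlapping matches form CACGTG. Each stretch lies within 250 bases upstream of the transcript start that its window was built on. For PGK1, PDK1, ANKRD37 and part of ALDOC this is inside the span of the gene in GENCODE, which begins further upstream.
CA9 (chr9:35673895-35673927, + strand): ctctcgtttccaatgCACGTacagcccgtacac
BNIP3 (chr10:131982008-131982081, − strand): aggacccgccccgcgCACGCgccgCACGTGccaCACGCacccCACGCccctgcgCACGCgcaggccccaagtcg
PDK1 (chr2:172556058-172556089, + strand): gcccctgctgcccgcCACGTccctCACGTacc
ALDOC (chr17:28576904-28577145, − strand): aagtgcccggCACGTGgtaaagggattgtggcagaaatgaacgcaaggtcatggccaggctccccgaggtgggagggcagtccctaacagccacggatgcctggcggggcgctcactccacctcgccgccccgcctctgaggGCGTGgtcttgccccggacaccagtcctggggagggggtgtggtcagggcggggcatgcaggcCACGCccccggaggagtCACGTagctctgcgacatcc
ANKRD37 (chr4:185396664-185396717, + strand): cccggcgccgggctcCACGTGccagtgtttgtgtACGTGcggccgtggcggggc
CA12 (chr15:63382061-63382095, − strand): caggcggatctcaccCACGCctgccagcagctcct
PGK1 (chrX:78104022-78104084, + strand): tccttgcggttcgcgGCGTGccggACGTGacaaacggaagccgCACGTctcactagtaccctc

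The stretches held between 1 match (CA9 and CA12) and 6 (BNIP3), and PDK1 held a pair of ACGTG matches on the minus strand just before that start. Of the 62 windows of the 32 members 35.5% held ACGTG, against 21.4% of all 35116 windows, and 45.2% held GCGTG, against 36.5%. The palindrome CACGTG was in 12.9% of the members' windows and in 7.26% of all windows. Most of these genes are textbook HIF targets, and a match is only a run of letters in the window.

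With Cas9 and the GLIS3 guide, no member differed from the control guide by edgeR. H47_KO over H47_Ctrl gave 0 called of 33 members averaged over the 4 times, where 3.07% of 10962 genes were called. At 0, 6, 12 and 24 h it also gave 0, with 0.301%, 0.319%, 0.0821% and 0.21% of all genes called. At an unadjusted p under 0.05 there were 3 members on average and 6, 2, 3 and 2 at the 4 times. The members' median log2 fold change averaged over time was 0.05, against −0.01 over all genes. DESeq2 and edgeR without the filter each called ADM, higher at 6 h, and edgeR with abundance-dependent offsets called ENO1, lower on average (−0.17 with TMM scaling).

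At 0 h the H47_KO and H47_Ctrl libraries did not overlap for SLC2A1 and HIF1A and overlapped for NDRG1, though none of these was called. SLC2A1, with the smallest adjusted p on average (log2 0.27, SE 0.090, adjusted p = 0.0963), measured 92.9, 61.5 and 75.6 normalized CPM in H47_Ctrl at 0 h and 99.4, 98.2 and 106 in H47_KO. NDRG1 came next by size (log2 0.51, SE 0.201, adjusted p = 0.186), with 0.675, 2.25 and 2.16 normalized CPM against 1.77, 3.03 and 3.16. HIF1A measured 383, 363 and 365 in H47_Ctrl at 0 h and 299, 266 and 244 in H47_KO (averaged log2 −0.20, SE 0.111, adjusted p = 0.386). Its H47_KO libraries lay below the H47_Ctrl libraries at 0 h and overlapped with them at 24 h. EPAS1, BNIP3 and PDK1, which differed in the CRISPRa arm, had averaged log2 differences of 0.05, 0.11 and −0.11 with adjusted p of 0.823, 0.598 and 0.76.

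ADM and KDM3A gave the lowest p-values at 6 h. ADM measured 282, 336 and 346 normalized CPM in H47_KO and 161, 166 and 239 in H47_Ctrl at 6 h (log2 0.77, SE 0.215, adjusted p = 0.111). KDM3A was −1.09 on the log2 scale (SE 0.343, adjusted p = 0.17). For each the 3 libraries of the groups did not overlap, which was so for 11 members at 6 h (14.9% of all genes), 8 at 0 h (17.8%), 5 at 12 h (15.2%) and 6 at 24 h (13.5%). A change of the guide's effect between 0 and 6 h or 0 and 24 h was called by edgeR for 0 members (0.00912% and 0% of all genes), with 5 and 2 at an unadjusted p under 0.05. Among related genes, DDIT4 was lower on average (−1.08), and ANGPTL4 (0.56), PPP1R3C (0.59) and PDK2 (0.41) were higher.

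The other axis of the design was time with TGFβ and IL-1β, compared within each group of cells with 0 h. HIF1A and the fructose-2,6-bisphosphate enzymes PFKFB3 and PFKFB4, with SLC2A1 and SLC16A1, were called higher at 6 h in all 4 groups of cells with TMM scaling. Only HIF1A and PFKFB3 were called in all 4 under each of TMM, DESeq2, loess and TPM scaling. PFKFB4 was lost under at least 1 of these in VP64_Ctrl and VP64_A, SLC2A1 in H47_KO, VP64_Ctrl and VP64_A, and SLC16A1 in H47_Ctrl, VP64_Ctrl and VP64_A. At 24 h BNIP3, ENO2, HIF1A, HK2, PFKFB4 and SLC2A1 were called higher and EPAS1 lower in all 4 with TMM scaling, and of these only EPAS1 in all 4 under each scaling. The others were lost under at least 1 scaling, BNIP3 in H47_Ctrl, ENO2 in H47_Ctrl and VP64_Ctrl, HIF1A in VP64_A, PFKFB4 in VP64_Ctrl, SLC2A1 in VP64_Ctrl and VP64_A, and HK2 in all 4. HK2 in VP64_A was also lost without the libraries that stood apart. Members above the median of all genes numbered 25 and 18 of 33 at 24 h in H47_Ctrl and H47_KO. In VP64_Ctrl and VP64_A they numbered 29 and 28 of 35. On TPM the numbers were 23, 19, 29 and 26, and with loess offsets 22, 21, 24 and 28. At 6 h they were 20, 24, 27 and 20 with TMM scaling and 19, 18, 17 and 15 with loess offsets. The split of members into higher and lower depended on how libraries were scaled, because the median of all genes moved by between −0.60 and 0.45 on the log2 scale when TPM were used in place of TMM-scaled counts, and by over 0.1 in 23 of 32 comparisons. Each direction below therefore comes with its count under limma on log2(TPM + 1) or under abundance-dependent loess offsets where the split moved. Shares of all genes called are given with TMM scaling only, and the median of all genes is given beside the TPM splits.

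**Figure D4:**
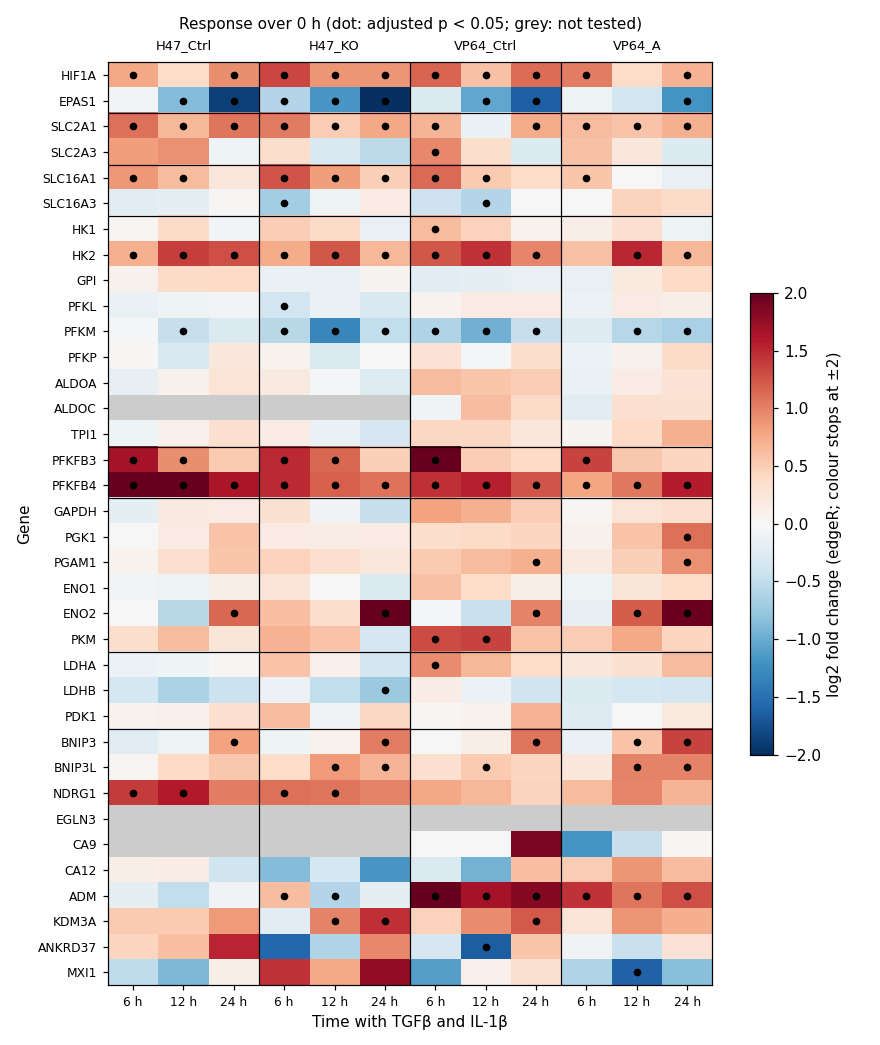
Log2 fold change of each member (1 row per gene) at 6, 12 and 24 h with TGFβ and IL-1β over 0 h in H47_Ctrl, H47_KO, VP64_Ctrl and VP64_A. Colour gives the log2 fold change by edgeR with TMM scaling, a dot an adjusted p under 0.05 and grey an untested gene. At 24 h the columns hold 7, 12, 11 and 12 dots.

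HIF1A rose early. In H47_Ctrl it measured 383, 363 and 365 normalized CPM at 0 h and 456, 722 and 730 at 6 h (log2 0.78, SE 0.224, adjusted p = 0.0133), the lowest 6 h value being the library that stood apart. In VP64_Ctrl it measured 304, 262 and 294 at 0 h and 530, 639 and 766 at 6 h (log2 1.17, SE 0.214, adjusted p = 9.6e-05). No 6 h library fell within the range of 0 h in either group. The rise was 1.33 in H47_KO and 1.02 in VP64_A, and HIF1A was called at 6 h in all 4 groups of cells under each of TMM, DESeq2, loess and TPM scaling. EPAS1 moved the other way. At 6 h it was called lower in H47_KO (log2 −0.58, SE 0.169, adjusted p = 0.0112, under all 4 scalings) and in no other group of cells, and at 24 h in all 4. It measured 34.02, 42.5 and 38.1 normalized CPM at 0 h and 11.4, 11.7 and 8.56 at 24 h in H47_Ctrl, and fell by 1.87 on the log2 scale (SE 0.188, adjusted p = 4.43e-09). It fell by 2.00 in H47_KO, by 1.64 in VP64_Ctrl and by 1.19 in VP64_A at 24 h, again under all 4 scalings.

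Both fructose-2,6-bisphosphate enzymes were higher at 6 h in all 4 groups of cells with TMM scaling. PFKFB3, whose kinase activity raises glycolytic flux, measured 6.48, 5.47 and 9.18 normalized CPM at 0 h and 16.7, 31.8 and 17.2 at 6 h in H47_Ctrl (log2 1.67, SE 0.281, adjusted p = 3.66e-05). In VP64_Ctrl it measured 5.95, 7.87 and 5.24 at 0 h, 28.9, 26.7 and 27.2 at 6 h and 8.68, 10.0 and 7.28 at 24 h. It was thus high at 6 h and back near its starting range at 24 h, and the 6 h rise was called in all 4 groups of cells under all 4 scalings. From 6 to 24 h PFKFB3 fell by 1.15 in H47_Ctrl, 1.02 in H47_KO, 1.70 in VP64_Ctrl and 0.91 in VP64_A on the log2 scale. This fall was called under all 4 scalings in H47_Ctrl and VP64_Ctrl, and lost under at least 1 in H47_KO and VP64_A. PFKFB4, its bifunctional relative, measured 4.32, 4.67 and 3.51 normalized CPM at 0 h and 24.7, 18.7 and 27.7 at 6 h in H47_Ctrl. It was still at 13.3, 15.4 and 11.4 at 24 h, so all stimulated libraries lay above the unstimulated ones. Its log2 changes at 6 h were 2.48 in H47_Ctrl (SE 0.219, adjusted p = 9.78e-11), 1.499 in H47_KO, 1.47 in VP64_Ctrl and 0.79 in VP64_A.

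SLC2A1 and HK2 RNA were also higher at some times. SLC2A1 measured 163, 156 and 174 normalized CPM at 6 h in H47_Ctrl, against 92.9, 61.5 and 75.6 at 0 h (log2 1.10, SE 0.182, adjusted p = 3.04e-05). In VP64_Ctrl the 6 h values were 129.9, 159 and 176 against 93.5, 88.5 and 107 (log2 0.68, SE 0.155, adjusted p = 0.00126), but on TPM the value was −0.07. The direction in VP64_Ctrl at 6 h therefore depended on the scaling. HK2 measured 13.2, 13.5 and 8.64 normalized CPM at 0 h and 30.5, 34.995 and 29.01 at 12 h in H47_Ctrl (log2 1.39, SE 0.219, adjusted p = 1.23e-05). The libraries of the times did not overlap, and HK2 was called higher at 12 h in all 4 groups of cells with TMM scaling, but under all 4 scalings in H47_Ctrl and VP64_A alone. NDRG1 rose at 6 h in H47_Ctrl, from 0.675, 2.25 and 2.16 to 4.89, 5.17 and 2.70 normalized CPM (log2 1.40, SE 0.421, adjusted p = 0.0185), a call lost without the libraries that stood apart, of which 1 holds the 4.89.

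BNIP3 and ENO2 were higher at 24 h with TMM scaling, with the exceptions under other scalings given above. BNIP3 measured 70.1, 70.2 and 63.2 normalized CPM at 0 h, 54.5, 56.3 and 65.8 at 6 h and 120.3, 116 and 118 at 24 h in H47_Ctrl. It rose by 0.80 at 24 h over 0 h (SE 0.182, adjusted p = 0.00252), by 1.03 in H47_KO, 1.06 in VP64_Ctrl and 1.36 in VP64_A. ENO2 measured 6.01, 6.20 and 2.63 at 0 h and 24.7, 27.004 and 20.4 at 24 h in H47_KO, a log2 change of 2.28 (SE 0.276, adjusted p = 1.54e-07). It rose by 1.14 in H47_Ctrl, 1.00 in VP64_Ctrl and 1.961 in VP64_A at 24 h. Between 6 and 24 h both genes rose in all 4 groups of cells under each of the 4 scalings, a contrast added after the data had been seen. KDM3A was higher at 24 h in H47_KO (log2 1.46). In VP64_Ctrl its call (1.23) was lost without the libraries that stood apart and under another scaling. PGK1 was called at 24 h in VP64_A (1.10, SE 0.236, adjusted p = 0.0011).

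**Figure D5:**
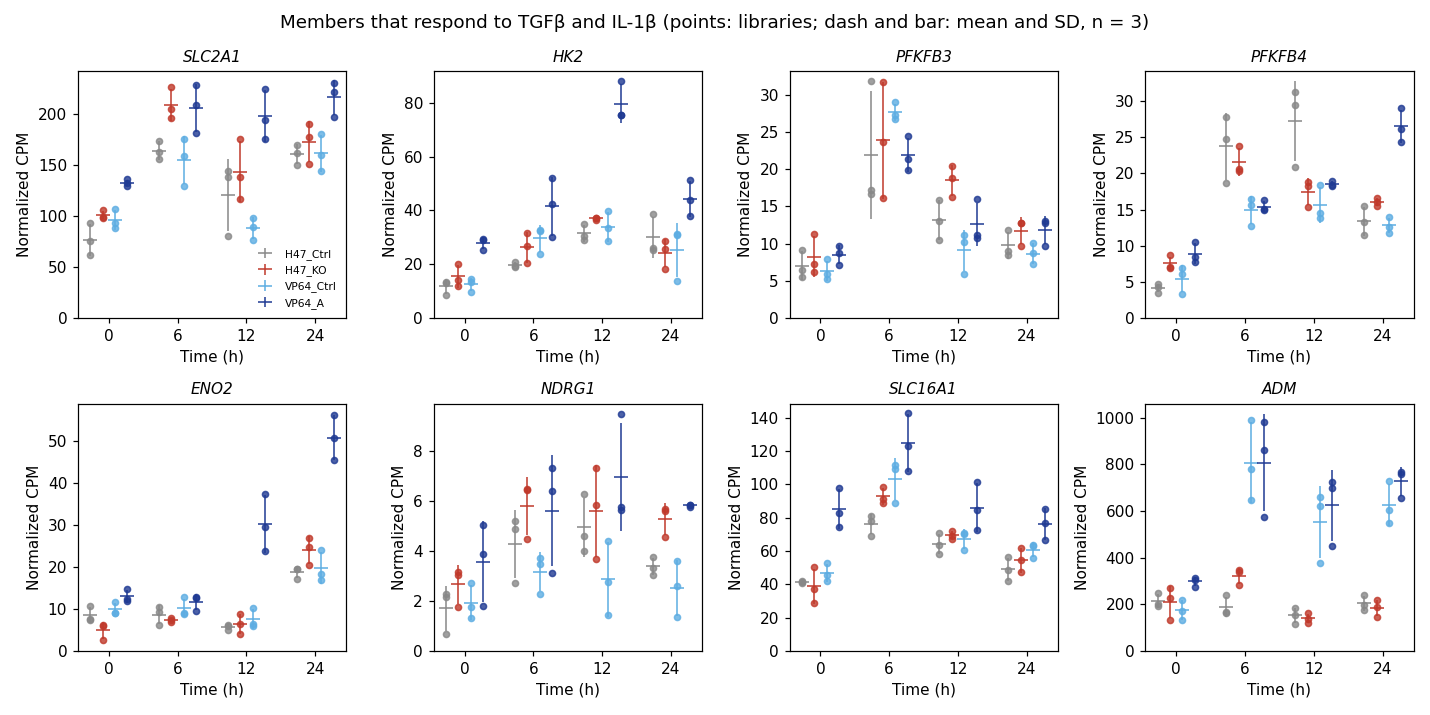
Normalized CPM (y axes, from 0) of SLC2A1, HK2, PFKFB3, PFKFB4, ENO2, NDRG1, SLC16A1 and ADM against time with TGFβ and IL-1β (x axes, h). Points are libraries, and dashes with bars give the mean and SD (n = 3) of each group of cells. PFKFB3 peaks at 6 h, ENO2 is highest at 24 h, and ADM at 6 h is 807 ± 172 in VP64_Ctrl and 188 ± 43.5 in H47_Ctrl.

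ADM gave the largest response of all members in VP64_Ctrl. There it measured 172, 218 and 134 normalized CPM at 0 h and 648, 781 and 990 at 6 h (log2 2.21, SE 0.243, adjusted p = 1.39e-08). In VP64_A it measured 314, 275 and 303 at 0 h and 576, 861 and 983 at 6 h (log2 1.44, SE 0.237, adjusted p = 2.7e-05). No 6 h library overlapped with 0 h in either group, and both stayed high at 24 h, at 605, 726 and 550 and at 767, 657 and 757. In H47_Ctrl the values were 201, 193 and 247 at 0 h, 161, 166 and 239 at 6 h and 176, 239.8 and 195 at 24 h, and no time was called. In H47_KO ADM was called higher at 6 h (log2 0.62, SE 0.214, adjusted p = 0.0336), not without the libraries that stood apart, and lower at 12 h (−0.59). PKM was called at 6 h in VP64_Ctrl (log2 1.30, SE 0.317, adjusted p = 0.00229), where its 0 h values include the 830 of the library that stood apart.

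Counted over the set, H47_Ctrl had 7 members higher and 0 lower at 6 h (all genes, 10.3% and 5.6%), 6 and 2 at 12 h (11.3% and 8.27%) and 6 and 1 at 24 h (6.53% and 3.73%). The lower members were PFKM and EPAS1 at 12 h and EPAS1 at 24 h. On TPM the splits were 4 and 1, 2 and 4, and 3 and 2, with all-gene medians of −0.11, −0.15 and −0.16. With loess offsets they were 7 and 1 at 6 h and 7 and 5 at 12 h. At 24 h the count was 10 higher and 1 lower without the libraries that stood apart, with BNIP3L, KDM3A, PGAM1 and PGK1 added. The median of the members at 24 h was 0.28, against 0.01 over all genes.

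In H47_KO the counts were 8 and 4 at 6 h (all genes, 13.2% and 10.8%), 9 and 3 at 12 h (14.4% and 13%) and 9 and 3 at 24 h (9.07% and 6.78%). On TPM they were 4 and 9 at 6 h and 1 and 6 at 12 h, with all-gene medians of −0.43 and −0.25. With loess offsets they were 8 and 8 and 8 and 9, and with DESeq2 10 and 3 at 6 h. At 24 h LDHB (−0.74) and PFKM (−0.50) were lower beside EPAS1, PFKM neither under every scaling nor without the libraries that stood apart. The split at 24 h did not move by more than 10 percentage points under any scaling, and the members' median was 0.16, against 0.02 over all genes.

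VP64_Ctrl had 11 higher and 1 lower at 6 h (all genes, 16.2% and 12.6%), 7 and 4 at 12 h (15.3% and 11.5%) and 9 and 2 at 24 h (10.4% and 5.57%). On TPM the splits were 4 and 12, 3 and 11, and 4 and 4, with all-gene medians of −0.65, −0.51 and −0.32. Above these medians lay 27, 24 and 29 of the 35 members. Loess offsets gave 7 and 10 at 6 h and 5 and 9 at 12 h, and DESeq2 11 and 3 at 12 h. The 0 h libraries of this group include the replicate with the largest departure, and without the libraries that stood apart the split was 9 and 1 at 6 h, 4 and 4 at 12 h and 7 and 2 at 24 h. The calls lost were HK1 and LDHA at 6 h, BNIP3L, HIF1A and SLC16A1 at 12 h, and KDM3A, PFKM and PGAM1 at 24 h. At 6 h ADM, HIF1A, PFKFB3 and PFKM (lower) were called under all 4 scalings. HK1, HK2, LDHA, PFKFB4, PKM, SLC16A1, SLC2A1 and SLC2A3 were not.

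VP64_A had 6 higher and 0 lower at 6 h (all genes, 11.4% and 5.93%), 7 and 2 at 12 h (12.6% and 7.1%) and 10 and 2 at 24 h (9% and 4.55%). On TPM the splits were 3 and 4 at 6 h and 4 and 3 at 12 h, with all-gene medians of −0.21 and −0.22. Loess offsets gave 7 and 3 at 6 h. The members called at 24 h under all 4 scalings were ADM, BNIP3, BNIP3L, ENO2, PFKFB4, PGAM1 and PGK1, higher, and EPAS1 and PFKM, lower. The median of the 35 tested members at 24 h was 0.40, against 0 over all genes.

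Between 6 and 24 h the split was 2 higher and 4 lower in H47_Ctrl (all genes, 6.9% and 7.74%), 5 and 6 in H47_KO (12.1% and 12.1%), 2 and 5 in VP64_Ctrl (8.98% and 9.45%) and 6 and 4 in VP64_A (5.8% and 6.72%). On TPM it was 5 and 2, 11 and 1, 7 and 2, and 11 and 2, with all-gene medians of −0.08, 0.53, 0.31 and −0.03. Loess offsets gave 5 and 4, 10 and 5, 10 and 4, and 12 and 4.

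The other known HIF target genes were counted alongside. At 24 h over 0 h 8 of 26 tested were higher and 0 lower in H47_Ctrl, 10 and 0 in H47_KO, 10 and 0 in VP64_Ctrl and 15 and 0 in VP64_A. Their median log2 changes were 0.58, 0.42, 0.50 and 0.78, against 0.28, 0.16, 0.43 and 0.40 for the tested members of the set. Of the 6 pentose phosphate genes 2, 2, 2 and 1 were lower and 0 higher at 24 h in the same order. Of all genes 6.53%, 9.07%, 10.4% and 9% were higher at 24 h, and 3.73%, 6.78%, 5.57% and 4.55% lower.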

How the data were processed

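RNA-seq was run on 48 libraries in 16 groups of 3. The authors used Trim Galore for trimming, SortMeRNA against ribosomal RNA, STAR for alignment to GRCh38 and Salmon for quantification; versions and annotation are not given in the sources used here. They deposited estimated counts, not normalized between libraries (6.38% not whole), and TPM, scaled for transcript length to a common total per library.

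Estimated counts were rounded, and each arm (24 libraries) was fitted with edgeR 4.0.16 in R 4.3.3: TMM, filterByExpr (minimum count 10, minimum total 15) and the two-sided quasi-likelihood F test. Calls are Benjamini-Hochberg adjusted p under 0.05 over all 10962 (CRISPRko) or 10980 (CRISPRa) genes, whether or not a gene is a member. Common dispersions were 0.0354 and 0.0336. Libraries held at most 10661004 counts, which limits the precision of genes with few counts. Replicate libraries also differed by more than counting error. Among 48 replicate pairs 0 were identical (lowest chi-square over degrees of freedom, 3.80). Reads can be shared with near-identical copies: SLC2A14 held 0.0999% of the counts of SLC2A3, and numbered pseudogenes 0.0761% of those of TPI1 and 0.0179% of those of PGAM1. Scripts were tested on simulated data.

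Members and gene lists were chosen with earlier results of these data known. A gene of the related lists is not reported here and was left out of their counts. Values per library are given for 8 members named in any case (HIF1A, EPAS1, SLC2A1, HK2, PFKFB3, LDHA, PDK1, CA9), the called members with the largest averaged guide effect (up to 8 per arm) and with the largest response at 6 or 24 h (up to 6 per group of cells). The alternatives were DESeq2 1.42.0, its size factors in edgeR, no filter, a replicate block, a fit of the compared libraries alone, limma 3.58.1 on log2(TPM + 1) with and without the filter and on log2(TPM + 0.1), and each library left out. Loess offsets, leaving out the 4 libraries that stood apart, 24 over 6 h and the joint fit of both arms (11422 genes) were added after seeing the data.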

Additional observations from a re-analysis of the deposited data

Results flagged for a closer look

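The response of ADM, which encodes adrenomedullin, differed between the control cells of the 2 arms by a test of the difference itself, in a joint edgeR fit of 48 libraries that was added after seeing the data. Over 0 h, the log2 change in VP64_Ctrl exceeded that in H47_Ctrl by 2.38 at 6 h (SE 0.338, adjusted p = 7.65e-05) and by 1.91 at 24 h (SE 0.337, adjusted p = 0.000968). Of 11422 genes tested, 0.429% and 0.49% were called in these contrasts, and ADM was the called member of the set in each. ADM stood at 213 ± 29.01 normalized CPM (SD, n = 3) at 0 h and 188 ± 43.5 at 6 h in H47_Ctrl, and at 175 ± 41.7 and 807 ± 172 in VP64_Ctrl. All 3 VP64_Ctrl libraries rose above all 0 h libraries of that group, and the H47_Ctrl libraries overlapped between times. ADM was called under each alternative tried. The arms differ in Cas9 against dCas9–VP64 and in the population of cells, which cannot be told apart.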

How the results depend on the processing

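Under the alternatives, VP64_A over VP64_Ctrl averaged over time kept its direction and count, with 25 to 31 members called against 29. At 0 h the 20 members became 12 without the 4 libraries that stood apart, 13 with the libraries compared fitted alone, 12 with limma on log2(TPM + 0.1) and 11 on log2(TPM + 1) without the filter. At 6 h the 7 members became 15 with loess offsets and 11 on log2(TPM + 0.1). The change of this effect from 0 to 24 h had 0 members, and 1 (PGK1, higher) under the 3 limma fits and loess offsets. H47_KO over H47_Ctrl went from 0 to 1 at 6 h with DESeq2 and without the filter (ADM) and on average with loess offsets (ENO1, lower). Of the responses over 0 h, H47_KO at 12 h went from 12 to 7 with limma on log2(TPM + 1), H47_Ctrl at 24 h from 7 to 11 without the 4 libraries and to 13 with the libraries compared fitted alone, H47_Ctrl at 12 h from 8 to 14 by the latter, and VP64_A at 6 h from 6 to 10 with loess offsets. Loess offsets moved 24 over 6 h from 7 to 14 in VP64_Ctrl and from 10 to 16 in VP64_A.

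Leaving out each library in turn gave 12–20 members for VP64_A over VP64_Ctrl at 0 h, 4–7 at 6 h, 11–14 at 12 h and 10–14 at 24 h. It gave 5–8 for H47_Ctrl at 12 h (5 without 0 h replicate 2), 7–10 for H47_KO at 6 h (7 without 0 h replicate 2), 7–14 for H47_KO at 24 over 6 h (7 without 6 h replicate 2) and 1–2 for the difference between control cells at 6 h (PFKFB4 added without VP64_Ctrl 0 h replicate 1). At 0 h 12 remained without VP64_Ctrl replicate 3 and 13 without VP64_A replicate 1 or 2, at 6 h 4 without VP64_Ctrl replicate 1, and at 24 h 10 without VP64_Ctrl replicate 3.

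Genes that reversed did so in VP64_Ctrl. SLC2A1 at 6 h was −0.07022 on log2(TPM + 1), with and without the filter, and −0.0704 on log2(TPM + 0.1). HIF1A at 12 h was −0.09295 on log2(TPM + 1), with and without the filter, −0.0933 on log2(TPM + 0.1) and −0.001848 with loess offsets, BNIP3L at 12 h was −0.10 on each TPM scale, and LDHA at 6 h was −0.19 with loess offsets. The cause was not tested.

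Libraries share replicate numbers. Same-numbered libraries deviated together (correlation over 0.1 in every pair) in 2 of 24 comparisons, with correlations from −0.383 to 0.558, so the number was not taken as a pairing. A replicate block gave 29 members for VP64_A over VP64_Ctrl on average, 21 at 0 h and 14 at 24 h, and moved no count by over 1.5 times.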
